A study of Mus musculus with 12 samples.

Results

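The natriuretic peptide system was followed through 7 genes, taken from the 19308 genes of the count table by their symbols: the peptide genes *Nppa* and *Nppb*, the receptor genes *Npr1*, *Npr2* and *Npr3*, and the protease genes *Corin* and *Furin*. All 7 passed the filter on low counts, as did 14094 genes in all. The 12 hearts came from C57BL/6 mice that were operated at 8 weeks of age, and RNA was taken 1 week after surgery. They fell into WT sham, F3-KO sham, WT TAC and F3-KO TAC, with 3 hearts in each group. F3-KO mice carried a global, CRISPR-Cas9-made deletion of *Fabp3*, the fatty acid binding protein of heart muscle, so the loss was not limited to the heart. TAC is transverse aortic constriction, in which a suture narrows the aortic arch and raises the pressure load on the left ventricle, and sham mice had surgery without the constriction. The study's methods name male mice. The labels name the tissue as heart and do not say which chambers were taken.

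Atrial natriuretic peptide (ANP, from *Nppa*) and B-type natriuretic peptide (BNP, from *Nppb*) are hormones that heart muscle makes and releases when it is stretched. In the adult heart, *Nppa* is expressed mainly in the atria, and both genes are known to be switched on again in ventricular muscle under pressure load, which makes them the standard markers of hypertrophy. The membrane protease corin cuts pro-ANP into its active form, and furin is a protease of the secretory pathway that cuts pro-BNP. NPR-A (*Npr1*) and NPR-B (*Npr2*) are receptors that make cyclic GMP when ANP and BNP, or C-type natriuretic peptide, bind to them, while NPR-C (*Npr3*) takes the peptides up and clears them.

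*Nppb* and *Nppa* are neighbours on mouse chromosome 4, on the same strand and 13.5 kb apart in GRCm38, at chr4:147985788-147987205 and chr4:148000722-148002079 in GENCODE M21. The other members are spread over the genome, with *Npr2* also on chromosome 4, *Npr1* on 3, *Corin* on 5, *Furin* on 7 and *Npr3* on 15. The sequences before the RefSeq starts of the peptide genes are shown because these members had the largest differences between TAC and sham. Both are from RefSeq (GRCm38.p6), plus strand and 5′ to 3′. Capitals mark matches, on either strand, to the letters of known cardiac motifs, which are GATAA (GATA factors), AAGTG (NKX2-5), CATTCC (the MCAT element of TEAD factors) and GGTGTGA (T-box factors). The *Nppa* stretch is chr4:148000472-148000721, the 250 bases before the start, which is the same in RefSeq and GENCODE. The *Nppb* stretch is chr4:147985795-147985824, a 30-base window that ends 76 bases before the RefSeq start at position 147985900. That start lies 112 bases inside the GENCODE gene, so the window covers bases 8 to 37 of the gene as GENCODE draws it.
Nppa: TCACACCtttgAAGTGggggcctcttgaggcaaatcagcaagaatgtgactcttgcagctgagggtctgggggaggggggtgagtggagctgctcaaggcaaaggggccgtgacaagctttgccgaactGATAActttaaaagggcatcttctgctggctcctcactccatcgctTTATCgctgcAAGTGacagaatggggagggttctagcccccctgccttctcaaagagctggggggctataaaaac
Nppb: GGAATGcagctGATAAatcagaGATAAccc

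The 250 bases before *Nppa* held 2 matches to GATAA, 2 to AAGTG and 1 to GGTGTGA, and those before the RefSeq start of *Nppb* held 2 matches to GATAA and 1 to CATTCC. These letters are common. Among 32851 mouse promoters of this length, GATAA stood in 22.6%, AAGTG in 40.7%, CATTCC in 12.6% and GGTGTGA in 3.33%. Neither stretch held TGANTCA (AP-1, in 6.75% of promoters) or the CArG box of SRF (1.47%). One of the *Furin* promoters held 4 matches to AAGTG, and no motif of this set was found before *Npr1*, *Npr2*, *Npr3* or *Corin*. A match is a match of letters only.

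Libraries held 10424334 to 14372011 estimated counts, so that 3 counts stood for at most 0.288 CPM. CPM are the counts of a gene scaled to the same library size in every heart with TMM factors. The lowest count of any member in any heart was 102 (*Npr3*), well above 3 counts. The heart muscle markers checked (*Tnnt2*, *Actn2*, *Ryr2*, *Myh6*, *Tnni3* and *Pln*) summed to 34188 to 61552 CPM. *Fabp3*, which checks the labels, stood at 2117 to 3064 CPM in WT hearts and at 1002 to 1143 CPM in F3-KO hearts. It was lower in F3-KO hearts after sham by 1.21 (log2, SE 0.15, adjusted p = 0.00784) and after TAC by 1.49 (SE 0.15, adjusted p = 0.00146), although the first call was lost without any 1 of the F3-KO sham hearts (adjusted p = 0.066 to 0.1) and the second in a fit of the TAC hearts alone (adjusted p = 0.151). The third F3-KO TAC heart stood apart: its counts were farther from those of the other F3-KO TAC hearts (chi-square per degree of freedom 83.9 and 84.4) than these were from each other (44.9). Without it the number of genes called for TAC against sham over both genotypes went from 11 to 849, whereas leaving out any 1 of the other hearts gave 0 to 69. The third WT TAC heart was no farther from its group (58.4 and 43.2 against 59.8), and 6 genes were called without it, but 1277 were called without both. Values without both hearts are given beside a member's result where they change the call or the direction or move the value by over 1.5 times.

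*Nppb* was the member called higher with TAC over both genotypes. In WT sham hearts it stood at 128, 95.05 and 155 CPM, and in WT TAC hearts at 776, 411 and 589 CPM. In F3-KO sham hearts it stood at 311, 181 and 172 CPM, and in F3-KO TAC hearts at 626, 647 and 584 CPM. Every TAC heart of either genotype was above every sham heart, the closest being the second WT TAC heart and the first F3-KO sham heart. Group means were 126 ± 29.9 (SD, n = 3) in WT and 222 ± 77.8 in F3-KO hearts after sham, and 592 ± 183 in WT and 619 ± 32.0 in F3-KO hearts after TAC. The 3 F3-KO TAC hearts differed from each other by 1.11-fold at most.

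Averaged over the genotypes, *Nppb* rose 3.62-fold with TAC (log2 fold change 1.86, SE 0.20, 95% interval 1.42 to 2.29, edgeR quasi-likelihood test, adjusted p = 0.0105). It had the smallest p of the 14094 genes tested. This was the only member of 7 called in that comparison, against 0.078% of all genes called (11 genes), and 0.0568% called higher. Separation of all 6 TAC hearts above all 6 sham hearts was seen for 0.553% of all genes. In a two-sided exact permutation test within the genotypes, p was 0.005, the smallest that the 400 arrangements allow. Without the third hearts of both TAC groups the log2 fold change was 1.87 (adjusted p = 0.00277), and without the third F3-KO sham heart it was 1.78 and missed the threshold (adjusted p = 0.0583).

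**Figure D1:**
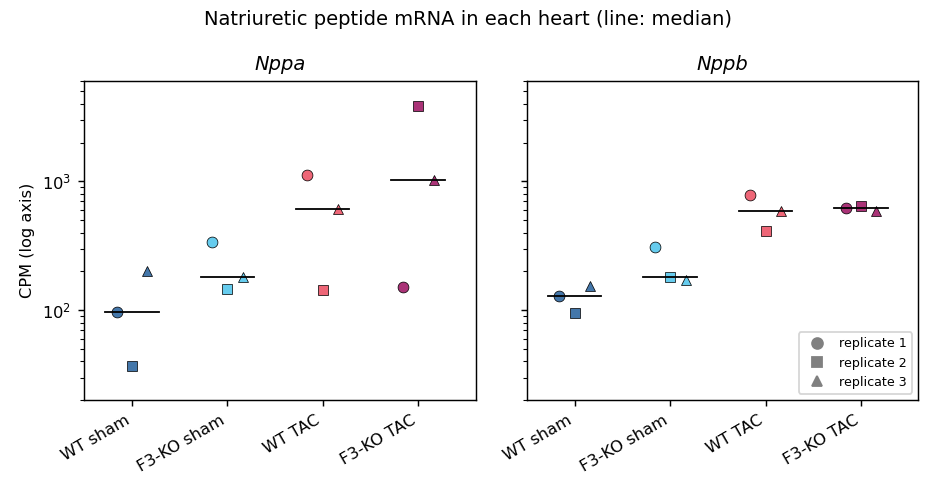
Levels of *Nppa* and *Nppb* in CPM (log axis) in each of the 12 hearts by group, with the group median as a line and the replicate number as the symbol. *Nppb* sat between 584 and 647 CPM in the F3-KO TAC hearts and above every sham heart in both TAC groups, while *Nppa* ran from 153 to 3841 CPM among the F3-KO TAC hearts and overlapped with sham.

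Within each genotype the same rise did not pass the adjustment over all genes. In WT hearts *Nppb* was 4.70-fold higher after TAC (log2 fold change 2.23, SE 0.29, 95% interval 1.61 to 2.85, adjusted p = 0.0679), and in F3-KO hearts 2.79-fold higher (1.48, SE 0.28, 0.88 to 2.09, adjusted p = 0.144). Without the third hearts of both TAC groups *Nppb* was called in F3-KO hearts (1.49, adjusted p = 0.028). It was also called there without the third F3-KO TAC heart alone (1.52, adjusted p = 0.0279). Both settings called many other genes in F3-KO hearts as well, where 0 of 14094 were called with all hearts. The log2 value of *Nppb* moved little from 1.48, so these calls were not particular to *Nppb*. In WT hearts *Nppb* was not called without the third hearts of both TAC groups (2.24, adjusted p = 0.105). Both pairs of groups were separate, where 4.67% of all genes were separate and higher in WT and 11.5% in F3-KO hearts. An exact permutation test of 3 hearts against 3 cannot go below p = 0.1, which both pairs reached. The edgeR test called 0 of 7 members in either genotype, as it called 0 of 14094 genes (0%) in each. At an unadjusted p under 0.05 it found 2 members in each genotype, *Nppa* and *Nppb*, where 6.28% of all genes passed in WT and 17.1% in F3-KO hearts. DESeq2 called *Nppb* in both genotypes and 27 and 443 genes in all. limma-trend called *Nppb* in WT hearts (1 gene in all) and no member in F3-KO hearts (8 genes in all).

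Sham-operated F3-KO hearts had more *Nppb* mRNA than sham-operated WT hearts in all 3 of 3 hearts. The difference was 1.76-fold (log2 fold change 0.81, SE 0.28, 95% interval 0.21 to 1.41), with an unadjusted p of 0.0121 from edgeR, but it did not pass the adjustment (adjusted p = 0.59). Groups of this comparison were separate and in this direction for 6.78% of all genes. After TAC the genotypes differed by 0.06 on the log2 scale (SE 0.27, -0.53 to 0.66, adjusted p = 0.952). The TAC effect on *Nppb* in F3-KO hearts less that in WT hearts was estimated at -0.75 on the log2 scale (SE 0.39, -1.59 to 0.09), and this difference of effects did not pass the test (adjusted p = 0.954).

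*Nppa* varied far more from heart to heart. WT sham hearts had 97.0, 37.1 and 199.97 CPM, and F3-KO sham hearts 339, 145 and 179 CPM. After TAC, WT hearts had 1114, 143 and 614 CPM, and F3-KO hearts 153, 3841 and 1019.9 CPM. One heart of each TAC group, the second WT and the first F3-KO heart, lay within the range of the sham hearts. The highest F3-KO TAC heart was 25.2 times the lowest, and *Nppa* had a biological coefficient of variation of 0.757, above 97.3% of the tested genes, where *Nppb* had 0.241 and the common value was 0.232.

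Group means of *Nppa* were 111 ± 82.4 CPM in WT and 221 ± 104 in F3-KO hearts after sham, and 624 ± 486 in WT and 1671 ± 1929 in F3-KO hearts after TAC. TAC against sham gave a log2 fold change of 2.49 in WT (SE 1.00, 95% interval 0.30 to 4.67, adjusted p = 0.782) and of 2.92 in F3-KO hearts (SE 1.02, 0.70 to 5.13, adjusted p = 0.202). Averaged over genotypes it was 2.70 (SE 0.71, 1.15 to 4.26), with an adjusted p of 0.109 from edgeR and a p of 0.04 in the stratified exact permutation test. Of the 42 exact tests run on the members this is 1 of 3 under 0.05, and it was not adjusted for their number. DESeq2 called it (adjusted p = 0.0147), as did edgeR without the third F3-KO TAC heart (2.83, adjusted p = 0.0486), while without the third hearts of both TAC groups the adjusted p was 0.0533. In this comparison DESeq2 called 656 of 14080 genes and edgeR without that 1 heart 849 of 14340, against 11 of 14094 with all hearts. The fitted rise was thus larger than that of *Nppb*, and its error more than 3 times as large.

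*Nppa* did not differ between the genotypes beyond the spread between hearts. F3-KO against WT gave 0.99 on the log2 scale after sham (SE 0.96, -1.10 to 3.08, adjusted p = 0.998) and 1.42 after TAC (SE 0.96, -0.68 to 3.52, adjusted p = 0.611). The value after TAC rested on 1 heart: without the second F3-KO TAC heart it was -0.09 (adjusted p = 0.992). The difference of the TAC effects was 0.43 (SE 1.34, -2.49 to 3.36, adjusted p = 0.99), and 0.66 without the third hearts of both TAC groups (adjusted p = 0.939).

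Set against each other in the same heart, the peptides stood at similar CPM in most hearts and came apart in a few. The ratio of *Nppa* to *Nppb* was 0.756, 0.391 and 1.29 in WT sham, 1.09, 0.798 and 1.04 in F3-KO sham, and 1.44, 0.348 and 1.04 in WT TAC hearts. In F3-KO TAC hearts it was 0.244, 5.94 and 1.75. The lowest and the highest ratio of all 12 hearts were therefore both in the F3-KO TAC group, where *Nppb* was nearly the same in all 3 hearts. Over the 12 hearts, log2 CPM of the peptides had a Pearson r of 0.78 and a Spearman rho of 0.75, given as a description of hearts that share their groups.

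**Figure D2:**
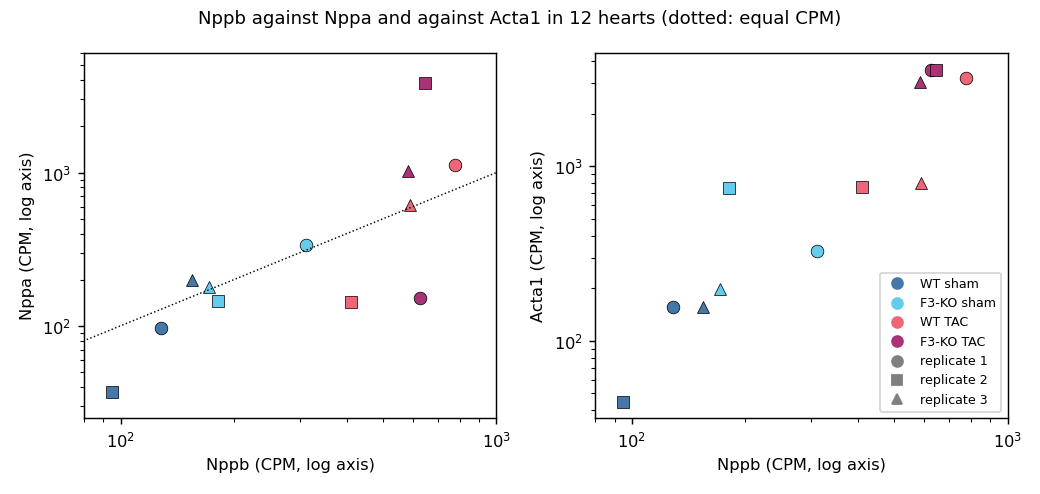
*Nppb* (horizontal, CPM) against *Nppa* (left, with a dotted line of equal CPM) and against *Acta1* (right), on log axes, with 1 point per heart, the group as the color and the replicate number as the symbol. In the F3-KO TAC hearts *Nppb* stayed between 584 and 647 CPM while *Nppa* spread from 153 to 3841 CPM and *Acta1* stayed between 3044 and 3566 CPM.

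The genes most like a peptide gene over the 12 hearts, by Pearson r of log2 CPM among 13417 genes, differed for the 2 peptides. For *Nppb* they were *Acta1* (r = 0.92), the skeletal alpha-actin that fetal heart muscle makes, *Ankrd23* (0.91), a stretch-related ankyrin repeat protein of muscle, *Mybpc2* (0.90), the fast skeletal myosin binding protein C, *Lman1l* (0.89) and a gene with only the identifier BGIG10090_47698 (0.89). For *Nppa* they were *Iah1* (0.97), *Snap91* (0.93), *Tgm2* (0.93), the tissue transglutaminase, *Cacnb1* (0.90), a calcium channel beta subunit, and *Tsga10* (0.90). These values describe 12 hearts in 4 groups and carry no test.

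Among the receptors and proteases, no member was called in any of the 7 comparisons. *Npr1*, *Npr2* and *Furin* differed little between the groups. *Npr1*, the ANP and BNP receptor, stood at 34.0, 46.7 and 34.9 CPM in WT and 50.7, 31.7 and 35.6 in F3-KO hearts after sham, and 44.6, 36.4 and 32.5 in WT and 39.2, 32.2 and 28.2 in F3-KO hearts after TAC. *Npr2*, the receptor of C-type natriuretic peptide, ranged from 63.6 to 94.8 CPM over all hearts, with group means of 81.7 ± 14.0, 77.9 ± 5.56, 77.6 ± 15.2 and 68.5 ± 7.69 in the same order of groups. All groups overlapped for both receptors.

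*Furin* ranged from 98.4 to 153 CPM, with means of 126 ± 23.9 in WT and 121 ± 5.09 in F3-KO hearts after sham, and 118 ± 18.4 in WT and 104 ± 7.04 in F3-KO hearts after TAC. The 3 F3-KO TAC hearts (98.4, 102 and 112 CPM) were all below the 3 F3-KO sham hearts (117, 118 and 126 CPM), a separation that 11.4% of all genes showed in this direction. The difference of -0.21 on the log2 scale (SE 0.15, adjusted p = 0.493) did not pass the test. Over *Npr1*, *Npr2* and *Furin* and all 7 comparisons, log2 differences ran from -0.25 to 0.03 and their 95% limits from -0.85 to 0.48, with a smallest unadjusted edgeR p of 0.181. Without the third hearts of both TAC groups the differences ran from -0.36 to 0.07. The ratio of *Npr2* to *Npr1* lay between 1.42 and 2.67 in all 12 hearts.

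**Figure D3:**
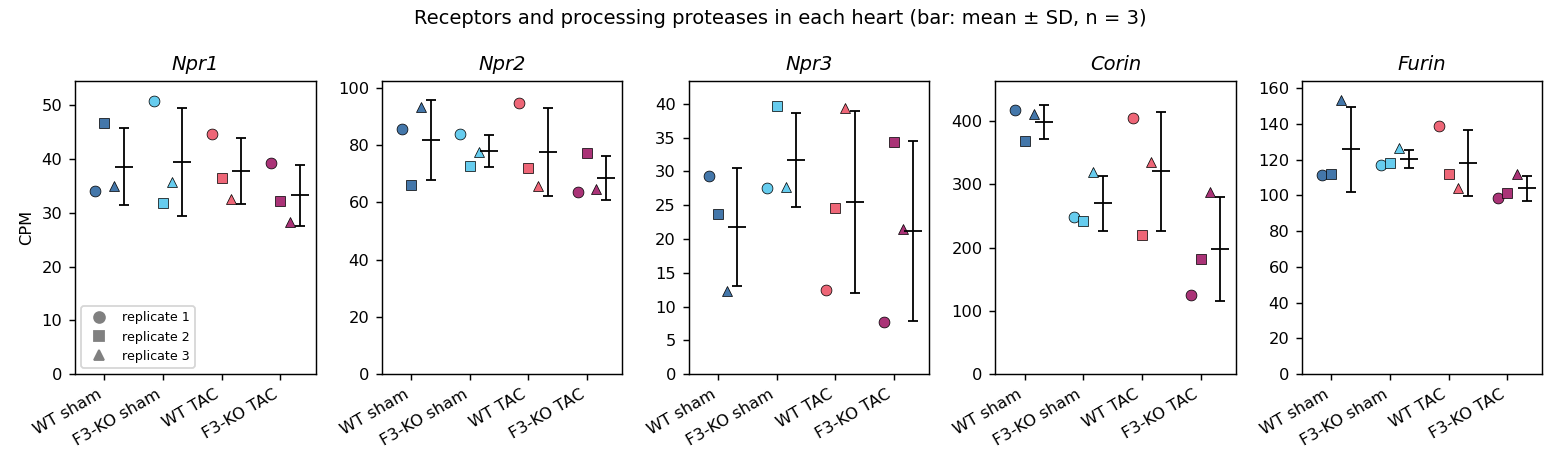
CPM of the 3 receptor genes and the 2 protease genes in each heart by group, with bars for the mean ± SD of 3 hearts and the replicate number as the symbol. *Npr1*, *Npr2* and *Furin* overlapped between most groups, *Npr3* varied within groups, and *Corin* was lower in F3-KO sham (242 to 319 CPM) than in WT sham hearts (368 to 416 CPM).

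*Npr3*, the clearance receptor, varied up to 5.13-fold over the hearts with no order by group. WT sham hearts had 29.3, 23.6 and 12.3 CPM, and F3-KO sham hearts 27.5, 39.7 and 27.8 CPM. WT TAC hearts had 12.4, 24.7 and 39.3 CPM, and F3-KO TAC hearts 7.74, 34.4 and 21.5 CPM. Low and high hearts stood in the same group, above all among the TAC hearts, and its coefficient of variation of 0.423 was above that of 90.3% of tested genes. TAC against sham gave 0.22 in WT (SE 0.50, 95% interval -0.87 to 1.32, adjusted p = 0.957) and -0.57 in F3-KO hearts (SE 0.50, -1.66 to 0.51, adjusted p = 0.593). The sign in WT hearts turned to -0.22 without the third hearts of both TAC groups.

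The genes most like *Npr3* over the 12 hearts were *Tmem108* (r = 0.96), *Cytl1* (0.94), *Sall1* (0.93), *Smoc1* (0.93) and *Enpp6* (0.90). *Cytl1*, which also stands in the list of endocardial markers used here, had 8.94, 6.42 and 2.37 CPM in WT and 6.32, 13.7 and 8.89 in F3-KO hearts after sham, and 1.49, 13.0 and 11.1 in WT and 1.52, 11.6 and 4.29 in F3-KO hearts after TAC. The 3 hearts lowest in *Npr3* were also the lowest in *Cytl1*. As *Cytl1* is shown for its likeness to *Npr3* in these same hearts, this adds no separate evidence. The other endocardial markers did not follow the same order, *Nfatc1* for example ranging only from 30.01 to 41.5 CPM (a gene named after its values were seen). The summed level of the 4 markers of this list ran from 109 to 201 CPM in WT and 156 to 276 in F3-KO hearts after sham, and 172 to 228 in WT and 133 to 214 in F3-KO hearts after TAC, and its part in the spread of *Npr3* was not tested. In whole tissue, fewer cells of a type and less RNA per cell cannot be told apart.

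**Figure D4:**
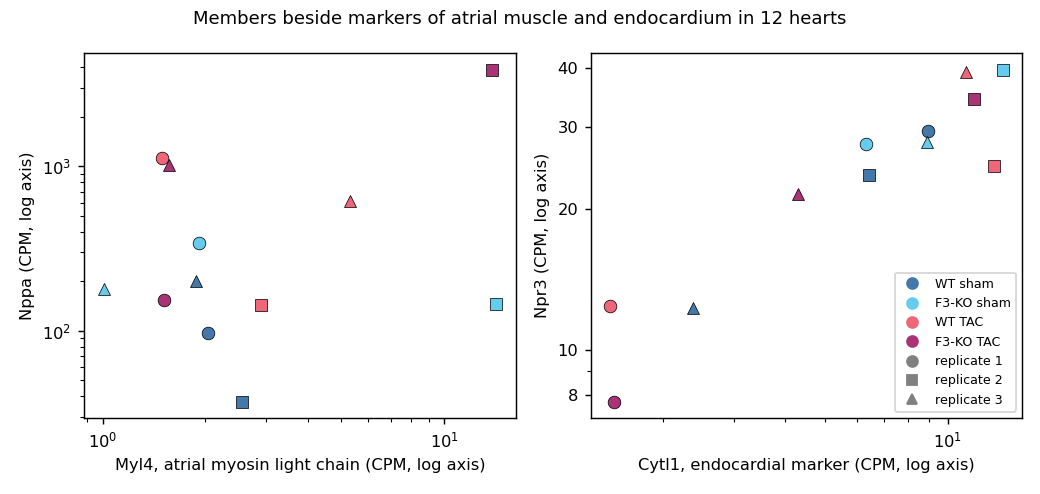
Left, *Nppa* against the atrial myosin light chain *Myl4*, and right, *Npr3* against the endocardial marker *Cytl1*, in CPM on log axes, with 1 point per heart, the group as the color and the replicate number as the symbol. The 2 hearts with the most *Myl4* (14.2 and 13.8 CPM) had 145 and 3841 CPM of *Nppa*, and the 3 hearts lowest in *Npr3* (7.74 to 12.4 CPM) were the 3 lowest in *Cytl1*. *Cytl1* was among the genes most like *Npr3* in these same hearts, and other endocardial markers did not follow the same order.

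*Corin*, the protease that activates pro-ANP, had the lowest levels in F3-KO hearts, but the difference did not pass the test over all genes. WT sham hearts had 416, 368 and 411 CPM, and F3-KO sham hearts 248, 242 and 319 CPM, with no overlap. WT TAC hearts had 405, 220 and 336 CPM, and F3-KO TAC hearts 125, 182 and 287 CPM, which overlapped. Separation in this direction was seen for 6.92% of all genes after sham. Means were 399 ± 26.8, 269.6 ± 43.3, 320.1 ± 93.6 and 198 ± 82.1 CPM in the order WT sham, F3-KO sham, WT TAC and F3-KO TAC.

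F3-KO against WT gave -0.56 for *Corin* on the log2 scale after sham (SE 0.28, 95% interval -1.18 to 0.05, adjusted p = 0.892) and -0.69 after TAC (SE 0.28, -1.30 to -0.08, adjusted p = 0.474). The mean of both was -0.63, a 0.647-fold level (SE 0.20, -1.06 to -0.19), with an unadjusted edgeR p of 0.0083, an adjusted p of 0.295 and a p of 0.025 in the stratified exact permutation test. The adjusted p stayed between 0.0551 and 0.609 under every alternative of tool, scaling, filter or left-out heart, while the log2 value stayed between -0.81 and -0.51. Without the third hearts of both TAC groups it was -0.80 (adjusted p = 0.112), and the difference after TAC was -1.05 (adjusted p = 0.197). TAC against sham gave -0.38 for *Corin* over both genotypes (SE 0.20, -0.81 to 0.05, adjusted p = 0.338), and -0.59 without these 2 hearts (adjusted p = 0.0733).

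Genes most like *Corin* over the 12 hearts were *Pcnt* (r = 0.94), a centrosome protein, *Slc27a1* (0.93), a fatty acid transporter, *Kcnn1* (0.92), a potassium channel, *Sfxn4* (0.92) and *Ift172* (0.92). The ratio of *Furin* to *Corin* was 0.268, 0.305 and 0.373 in WT sham and 0.473, 0.488 and 0.396 in F3-KO sham hearts, which did not overlap, and 0.343, 0.509 and 0.310 in WT TAC and 0.785, 0.557 and 0.389 in F3-KO TAC hearts, which did. *Furin* itself differed by only -0.06 (log2) between the genotypes after sham, so the ratio there largely repeats the separation of *Corin*.

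For the effect of genotype, the edgeR test called 0 of the 7 members after sham (0.106% of all genes called), after TAC (0.078%) and over both (0.412%), and DESeq2 and limma-trend called 0 members in each as well. Unadjusted p under 0.05 was found after sham for *Nppb* (6.02% of all genes), after TAC for *Corin* (10% of all genes) and over both for *Nppb*, higher by 0.44, and *Corin* (10.1% of all genes). For the difference of the TAC effects between genotypes, 0 members and 0 of all genes (0%) were called by edgeR, 0 members and 4.48% of all genes had an unadjusted p under 0.05, and DESeq2 and limma-trend called 0 members and 6 and 1 genes.

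**Figure D5:**
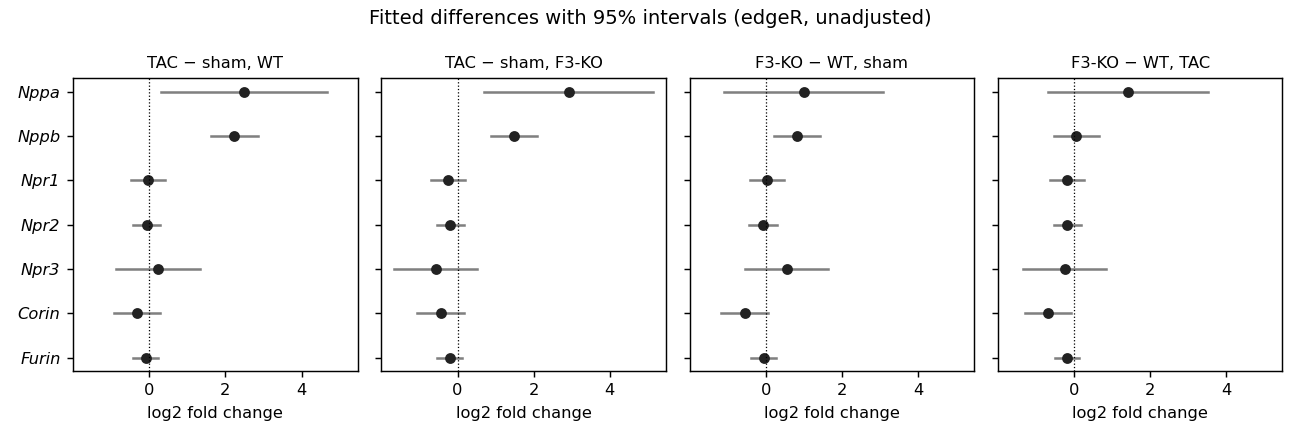
Fitted log2 fold changes of the 7 members (points) with unadjusted 95% intervals from edgeR (lines) for TAC against sham in WT and in F3-KO hearts and for F3-KO against WT after sham and after TAC. The intervals of *Nppa* and *Nppb* lie above 0 in both TAC panels, and those of *Npr1*, *Npr2*, *Npr3* and *Furin* cross 0 in every panel. In the genotype panels the interval of *Nppb* lies above 0 after sham (0.21 to 1.41) and that of *Corin* below 0 after TAC.

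Levels of different genes can be compared only per length, and were divided by the summed exon length of each gene in GENCODE M21. In WT sham hearts the order was *Nppb* with 161 ± 38.3 CPM per kb, *Nppa* with 129 ± 95.2, *Corin* with 80.3 ± 5.40, *Furin* with 26.8 ± 5.11, *Npr2* with 21.9 ± 3.76, *Npr1* with 9.48 ± 1.75 and *Npr3* with 3.001 ± 1.20. The ranges of *Nppb* and *Nppa* overlapped, that of *Nppa* (42.9 to 231 CPM per kb) also covered that of *Corin*, and those of *Furin* and *Npr2* overlapped. The order from *Corin* down to *Npr3* was the same in the other 3 groups. In F3-KO TAC hearts the means ran from 1932 ± 2230 CPM per kb for *Nppa* and 792 ± 41.0 for *Nppb* to 39.9 ± 16.5 for *Corin* and 2.93 ± 1.84 for *Npr3*.

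The other ligands and clearance enzymes of the pathway showed no called change. Of 8 genes in this list 6 were tested and 0 were called in any of the 7 comparisons, and their median log2 difference for TAC over both genotypes was -0.02, beside 0.00449 over all genes. *Nppc*, which encodes C-type natriuretic peptide, was near the detection limit with 1 count in the first WT sham heart, 1 in the first WT TAC heart, 6 in the second F3-KO TAC heart and 0 in the others, each of which allows up to 3 counts. *Mme* (neprilysin), the enzyme that degrades the peptides, stood between 5.30 and 12.2 CPM and differed by -0.22 between TAC and sham over both genotypes (SE 0.19, adjusted p = 0.559).

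Downstream of the receptors, 15 of 16 genes of cyclic GMP signalling were tested, among them kinases, phosphodiesterases and soluble guanylate cyclase. Called was 1 of them, *Rgs2*, which encodes a regulator that is activated by the cyclic GMP-dependent kinase and damps signals from Gq-coupled receptors. It was called for TAC over both genotypes, where 0.078% of all genes were called, and for genotype over both surgeries, where 0.412% were. *Rgs2* stood at 91.1, 91.6 and 77.6 CPM in WT and 58.8, 38.1 and 57.6 in F3-KO hearts after sham, and 29.97, 57.5 and 42.9 in WT and 18.7, 19.0 and 25.2 in F3-KO hearts after TAC. It was highest in all 3 WT sham hearts and lowest in all 3 F3-KO TAC hearts. *Rgs2* fell with TAC by 1.15 on the log2 scale over both genotypes (SE 0.17, adjusted p = 0.0248) and differed by -0.90 between F3-KO and WT hearts over both surgeries (SE 0.16, adjusted p = 0.0405). The call for TAC was lost without any 1 of 6 of the 12 hearts (adjusted p of up to 0.115). The call for genotype was lost without any 1 of 10 of the 12 hearts (adjusted p of up to 0.116) and without the third hearts of both TAC groups (adjusted p = 0.0573), and stood in only 8 of 20 alternatives. The list's median differences were 0.04 for TAC and 0.16 for genotype. At an unadjusted edgeR p under 0.05, 2 of its genes were higher and 2 lower for TAC, where 11.3% of all genes were higher and 6.52% lower. For genotype 4 were higher and 2 lower, where 10.1% of all genes passed in either direction.

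Of 19 transcription factors known to act on *Nppa* and *Nppb*, all tested, 0 were called in any comparison, with a median difference of -0.17 for TAC over both genotypes and 5 lower and 1 higher at an unadjusted edgeR p under 0.05, where 6.52% of all genes were lower and 11.3% higher at that p. Among 7 other markers of hypertrophy, 1 was called, for TAC over both genotypes, where 0.078% of all genes were called. At an unadjusted edgeR p under 0.05, 4 of the 7 were higher and 2 lower. *Acta1* stood at 156, 44.9 and 156 CPM in WT and 328, 753 and 197 in F3-KO hearts after sham, and 3202, 762 and 800.0 in WT and 3564, 3566 and 3044 in F3-KO hearts after TAC. All TAC hearts were above all sham hearts, the second WT TAC heart by little, and *Acta1* rose 10.3-fold with TAC (log2 fold change 3.36, SE 0.48, adjusted p = 0.0248). That call was lost without any 1 of 4 sham hearts (adjusted p of up to 0.129). *Myh7*, the slow myosin heavy chain, ranged from 174 to 23126 CPM with no order by group (TAC over both genotypes 2.72, SE 1.00, adjusted p = 0.194). Its neighbour *Myh6* is near-identical, and whether reads of *Myh6* were counted for *Myh7* was not tested.

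Atrial markers are given beside *Nppa*, which in the adult heart is expressed mainly in the atria. *Myl4* stood at 1.01 to 2.91 CPM in 9 hearts, at 5.30 in the third WT TAC heart, and at 14.2 and 13.8 CPM in the second F3-KO sham and the second F3-KO TAC heart. *Myl7* was highest in the same 2 hearts, with 8.13 and 8.55 CPM against 0 to 2.57 in the others, and *Sln* was at 1.64 and 2.297 CPM in them against 0 to 0.247. *Dkk3* stood at 8.22 CPM in the second F3-KO sham heart and at 45.7 CPM in the second F3-KO TAC heart, against 1.36 to 5.84 CPM in the others. The second F3-KO TAC heart was also the highest in *Nppa*, with 3841 CPM, and the second F3-KO sham heart had 145 CPM of *Nppa*. Of the 6 atrial markers measured here 5 were tested and 0 were called. For TAC over both genotypes 2 of these were higher and 3 lower (median log2 difference -0.56). At an unadjusted edgeR p under 0.05, 1 was higher and 2 lower, where 11.3% of all genes were higher and 6.52% lower at that p. The summed level of the 6 markers ran from 102 to 150 CPM in WT and 84.4 to 112 in F3-KO hearts after sham, and 67.2 to 102 in WT and 68.7 to 120 in F3-KO hearts after TAC. The largest part of these sums came from *Kcnj3*, except in the second F3-KO TAC heart, where *Dkk3* was larger (genes named after their values were seen). Group means of *Kcnj3* were 97.2 CPM in WT and 64.1 in F3-KO hearts after sham, and 65.9 in WT and 43.4 in F3-KO hearts after TAC. Those of *Stard10* were 24.6, 19.7, 16.7 and 12.3 CPM in the same order. The atrial markers were not followed further. Their part in the *Nppa* levels was not tested.

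Beside *Nppb*, markers of some other cells stood higher after TAC and those of others lower, with none called. All 5 macrophage markers were higher over both genotypes, with a median log2 difference of 0.72 and 0 called (4 at an unadjusted edgeR p under 0.05, where 11.3% of all genes were higher at that p), and summed to 115 to 260 CPM in WT and 186 to 224 in F3-KO hearts after sham, and 218 to 366 in WT and 287 to 437 in F3-KO hearts after TAC. All 5 fibroblast markers were higher as well (median 0.45, 0 called, 3 at an unadjusted p under 0.05, where 11.3% of all genes were higher at that p), with sums of 554 to 1418, 758 to 1058, 916 to 1615 and 1228 to 3215 CPM in the same order of groups. Of the 6 cardiomyocyte markers 5 were lower (median -0.28, 0 called, 3 lower at an unadjusted p under 0.05, where 6.52% of all genes were lower at that p). They summed to 44929 to 59828 CPM in WT and 58109 to 61552 in F3-KO hearts after sham, and 48150 to 59149 in WT and 34188 to 42456 in F3-KO hearts after TAC. The sums were thus lowest in the F3-KO TAC hearts. Means in F3-KO sham and F3-KO TAC hearts were 33388 and 17185 CPM for *Myh6*, which is also in the list of hypertrophy markers. They were 9783 and 7465 for *Tnnt2*, 5713 and 3162 for *Tnni3*, and 8293 and 5944 for *Pln*. For *Actn2* they were 2505 and 2437, and for *Ryr2* 1360 and 1312. The 3 red blood cell markers differed by a median of -0.64 over both genotypes, with 3 of 3 lower in F3-KO hearts after TAC (median -2.16, 0 called, 3 at an unadjusted p under 0.05, where 17.1% of all genes passed in either direction) and 3 of 3 higher in WT hearts (median 0.82, 0 called). Their difference of TAC effects had a median of -3.08 (0 called, 3 at an unadjusted p under 0.05, where 4.48% of all genes passed in either direction), and they summed to 463 to 1223, 754 to 3102, 221 to 3063 and 256 to 673 CPM in the order WT sham, F3-KO sham, WT TAC and F3-KO TAC. All 4 mural cell markers were lower by little (median -0.06), and of the endothelial markers 3 were higher and 3 lower (median -0.03). In the third hearts of both TAC groups *Col1a1*, the collagen gene of fibroblasts, named here after its values were seen, stood at 75.2 and 103 CPM against 270.5 to 1529 CPM in the other 4 TAC hearts, while *Nppb* was at 589 and 584 CPM. The sum of all 5 fibroblast markers was 1202 CPM in the third WT TAC heart, against 1615 and 916 in the first and second. In the third F3-KO TAC heart it was 1228 CPM, against 1800 and 3215 in the first and second. The part of these markers in the members' levels was not tested.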

How the data were processed

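Sequencing libraries of RNA from 12 mouse hearts were analysed, 3 each of WT sham, F3-KO sham, WT TAC and F3-KO TAC, grouped by their labels. The study calls the replicates biological. The authors deposited estimated counts per gene, not normalized, of which 40.6% were not whole; they were rounded to whole numbers, since the tests had been planned for counts. Before that the authors mapped reads with HISAT2 2.0.4 and STAR 2.3.0, and the submitters' processing notes name the builds mm8 and mm9 without a role. The counting tool, its use of strand and the annotation are not given in the sources used here. Reads from the opposite strand over a member, if any, could therefore not be told apart from its own. The own tables of 11 hearts held the same values as the joint table, and that of the second WT sham heart breaks off and was not used.

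Analyses used R 4.3.3, edgeR 4.0.16, limma 3.58.1 and DESeq2 1.42.0. Genes passed filterByExpr (minimum count 10, 14094 genes; those removed held 0.0775% of counts), TMM factors were 0.931 to 1.09, and a quasi-likelihood fit in edgeR with 1 mean per group gave 7 contrasts, called at a Benjamini-Hochberg adjusted p under 0.05 over all tested genes. log2 CPM used a prior count of 2. Sums of markers are scaled by library totals, and floors are 3 counts and cover counting error only. Two-sided exact permutation tests compared mean log2 CPM. The steps were tested on simulated data. The members and lists were chosen with earlier results of these data known. Pathway genes are named where called, always for *Nppc*, *Mme*, *Acta1*, *Myh7*, *Myl4*, *Myl7* and *Sln*, and as the 5 genes most like *Nppa*, *Nppb*, *Npr3* and *Corin* (mean of at least 1 CPM). Motifs were searched on both strands of the 250 bases before RefSeq starts. Further marker lists, with 0 genes called for TAC over both genotypes, were endothelial cells (6 tested), mural cells (4), endocardium (4), red blood cells (3) and adipocytes (0 tested, summed level 0 to 1.48 CPM). Alternatives were DESeq2, limma-trend, other scaling and filters, a replicate block, the groups compared alone, and left-out hearts.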

Additional observations from a re-analysis of the deposited data

How the results depend on the processing

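Counts of members called moved in 3 comparisons. For TAC in WT hearts the 0 members became 1, *Nppb*, with DESeq2, with no filter, with at least 10 counts in every library, with limma-trend and at an adjusted p under 0.1, and lay between 0 and 1 when single hearts were left out (1 without the first F3-KO sham or the second WT TAC heart). For TAC in F3-KO hearts they became 1 with DESeq2 and without the third hearts of both TAC groups, and 0 to 1 when single hearts were left out (1 without the third F3-KO TAC heart). Each setting that called this 1 member in F3-KO hearts called many other genes too. For TAC over both genotypes 1 became 2 with DESeq2, and 0 to 2 with single hearts left out (0 without the third F3-KO sham heart, 2 without the third F3-KO TAC heart). The settings with 2 members called 656 and 849 genes in all. The other 4 comparisons stayed at 0 members throughout. The cause was not tested. With the replicate number as a block, *Nppb* in WT hearts was called (log2 fold change 2.20, adjusted p = 0.0381, 1 member), *Rgs2* missed the threshold for TAC (adjusted p = 0.0551) and genotype (0.0788), as did *Acta1* (0.0519), and the block changed no other call of a member. Same-numbered hearts deviated together in 4 of 18 pairs only (r over 0.1; range -0.14 to 0.36, the highest between the third hearts of the TAC groups), and 6 of 12 hearts were closest to their own number, so the numbers were not taken as pairing the hearts.

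Of 1008 alternative values of single members 956 kept their direction and side of the threshold, 39 changed sign, 12 became calls and 1 lost its call. Sign changes were of differences near 0 or with wide errors. Without the third hearts of both TAC groups, TAC in WT hearts gave 0.07 for *Npr1*, 0.03 for *Npr2*, -0.22 for *Npr3* and 0 for *Furin*, and F3-KO against WT after TAC gave 0.17 for *Npr3*. With library totals alone *Npr1* after sham was 0 and the difference of effects for *Npr2* 0.01, and with limma-trend that for *Nppa* was -0.33. With single hearts left out, TAC in WT ran from -0.16 to 0.13 for *Npr1*, -0.25 to 0.03 for *Npr2*, -0.23 to 0.56 for *Npr3* and -0.22 to 0.08 for *Furin*, and TAC over both genotypes from -0.46 to 0.01 for *Npr3*. F3-KO against WT after sham ran from -0.19 to 0.19 for *Npr1*, -0.20 to 0.04 for *Npr2* and -0.14 to 0.11 for *Furin*, after TAC from -0.09 to 2.14 for *Nppa*, -0.14 to 0.31 for *Nppb* and -0.80 to 0.20 for *Npr3*, and over both from -0.19 to 0 for *Npr1* and -0.13 to 0.37 for *Npr3*. The difference of effects ran from -1.08 to 1.15 for *Nppa*, -0.38 to 0.01 for *Npr1*, -0.22 to 0.06 for *Npr2*, -0.49 to 0.12 for *Corin* and -0.30 to 0 for *Furin*. The number of all genes called differed more: edgeR, DESeq2 and limma-trend called 11, 656 and 12 genes for TAC over both genotypes, 15, 105 and 25 for genotype after sham, 11, 101 and 14 after TAC, and 58, 217 and 67 over both. Each group held 3 hearts, and whether their number, the spread between them or depth limited these comparisons was not tested.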
